A study of Mus musculus with 18 samples.

Results

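The 32 genes described here encode the enzymes and regulators that make cholesterol, fatty acids and the galactolipids of myelin, and they were the rows of a mouse count table whose gene symbol is one of these 32. All 32 were found among the 51290 genes of the table, and all 32 had enough counts to be tested in every comparison. In MPNST, malignant peripheral nerve sheath tumours, most of the sterol genes stood far below their level in plexiform neurofibromas and in nerves, and the myelin galactolipid genes were close to 0. In each comparison with MPNST, 11 of the 32 were not called, with Ebp, Srebf1, Fasn and Scd1 among them in both. In neurofibromas, a smaller set, among them Mvd, Nsdhl and Scd1, stood above nerve by less than 1 on the log2 scale.

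The study set malignant tumours of the mouse nerve sheath beside benign ones by sequencing poly(A) RNA of 18 samples, 6 in each of 3 groups. The MPNST group was Nf1 flox/flox and Arf flox/flox with PostnCre+, a Cre recombinase under the promoter of the periostin gene, and its labels give no body site. The plexiform neurofibroma group was trigeminal nerve of Nf1 flox/flox animals with PostnCre+, and the normal nerve group was trigeminal nerve of Nf1 flox/flox animals that were PostnCre-. No age is given in the labels. Nf1 encodes neurofibromin, which restrains RAS, and Arf is a tumour suppressor made from the Cdkn2a locus. The labels place the neurofibroma and nerve samples in an earlier series, and the MPNST not. Tumour stage, the Arf allele, body site and series of origin therefore cannot be told apart in any comparison with MPNST. The MPNST came from 6 mice, and the labels do not say how many animals gave the other samples, so p-values measure the spread between these samples. Sensory neuron markers were at a summed 2654 to 4105 CPM in neurofibromas and 1748 to 4325 CPM in nerves, and Schwann lineage markers were present in all libraries.

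Cholesterol is built from acetyl-CoA through mevalonate, farnesyl diphosphate and squalene, and lanosterol is then trimmed and reduced to cholesterol. Fatty acids are built from the same acetyl-CoA by Acly, Acaca and Fasn, and are lengthened by Elovl enzymes and desaturated by Scd enzymes. Both branches are switched on by the SREBP transcription factors, which Scap carries out of the endoplasmic reticulum for cleavage when sterol is scarce and which Insig proteins hold back. Myelinating Schwann cells make much of their own cholesterol, and join it in the myelin membrane with galactosylceramide, whose sugar is added by Ugt8a and whose fatty acid is hydroxylated by Fa2h.

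Each library held 13886399 to 23652959 counts in MPNST, 15307987 to 20056513 in neurofibromas and 14303986 to 20335697 in nerves. Levels below are CPM, the counts of a gene scaled to those of its library, on library sizes scaled by the TMM method, and 3 values in a row are the lowest, the median and the highest of the 6 libraries of a group. Levels are compared between groups and not between genes, since the table is not scaled by gene length. Nf1 itself was at 41.3 to 111 CPM in MPNST, 64.5 to 86.5 in neurofibromas and 79 to 158 in nerves, so the groups overlapped. Gene-level counts of bulk samples separate neither exons nor cells, so these values cannot check the genotype labels. Cdkn2a, whose gene-level count does not separate Arf from the other product of the locus, was at 0.284 to 605 CPM in MPNST, 3.44 to 8.38 in neurofibromas and 0.274 to 2.85 in nerves. Some MPNST libraries stood apart. Salivary gland markers took 35.5% of the counts of library 2, against at most 0.0291% in the other MPNST. Library 6 carried sympathoadrenal and pancreatic acinar markers at a summed 3331 and 3904 CPM, against at most 2.12 and 26.1 CPM in the other MPNST, and library 3 carried skeletal muscle markers at 51230 CPM. Results are therefore given with all libraries and without MPNST libraries 2 and 6. In bulk samples fewer cells of a type and less RNA per cell cannot be told apart.

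The sterol genes share promoter letters, and those of 8 picked from the members called lower in MPNST than in neurofibromas are shown. RefSeq promoter windows of the GRCm38.p6 build, another build than the GRCm39 of the submitters' processing notes, were found for 26 of the 32 members, and the 250 bases before each start were searched on both strands for CCAAT (the NF-Y box), GGGCGG (the GC box bound by Sp1), CACGTG (an E-box) and TCACNCCAC (a sterol regulatory element). A CCAAT box stood before 20 of the 26 members (76.9%), against 40.1% of the 12292 tested genes with a window. A GC box stood before 21 of 26 (80.8%, against 61.0%), an E-box before 5 of 26 (19.2%, against 9.49%), and the sterol element before 1 of 26 (3.8%, against 1.2%). That 1 member was Hmgcs1, with its element 137 bases before the start. Overlapping matches of different motifs were each counted, and a match is a string of letters and not a shown binding site. Capitals mark the sterol element in the first sequence and the CCAAT box, read as ATTGG where it lies on the other strand, in those after it; all run 5′ to 3′ along the gene.
Hmgcs1 sterol element, chr13:119690194-119690242, plus strand: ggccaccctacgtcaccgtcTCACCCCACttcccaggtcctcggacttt
Hmgcs1, chr13:119690286-119690330, plus strand: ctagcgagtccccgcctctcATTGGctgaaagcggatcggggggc
Pmvk, chr3:89454385-89454429, plus strand: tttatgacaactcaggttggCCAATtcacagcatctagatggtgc
Mvd, chr8:122443425-122443469, minus strand: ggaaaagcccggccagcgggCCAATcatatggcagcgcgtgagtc
Idi1, chr13:8885572-8885605, plus strand: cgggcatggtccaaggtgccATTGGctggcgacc
Cyp51, chr5:4104702-4104746, minus strand: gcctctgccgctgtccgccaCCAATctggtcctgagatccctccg
Msmo1, chr8:64733609-64733653, minus strand: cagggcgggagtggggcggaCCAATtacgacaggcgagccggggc
Nsdhl, chrX:72918481-72918520, plus strand: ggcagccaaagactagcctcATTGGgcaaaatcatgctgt
Srebf2, chr15:82147114-82147158, plus strand: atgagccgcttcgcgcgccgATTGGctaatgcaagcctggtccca
The CCAAT boxes shown lay 14 bases before the start in Idi1 at the nearest and 136 in Pmvk at the farthest. Ggps1, Tm7sf2, Hsd17b7, Sc5d and Elovl1 were also called lower and had a CCAAT box, but are not shown. In Hsd17b7 the nearest box lay 12 bases before the start. No window was found for Scd1, Scd2, Sqle, Fdps, Fdft1 and Fa2h.

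MPNST against plexiform neurofibromas asks how lipid synthesis transcripts differ between the malignant and the benign tumour. Of the 32 genes, 21 were lower in MPNST and 11 were not called (edgeR's quasi-likelihood test, Benjamini-Hochberg adjusted p below 0.05 over 16537 genes), where 16.8% of all tested genes were called lower. None of the 32 was called higher by edgeR, also at an unadjusted p below 0.05 (0 genes), while 25.3% of all tested genes were called higher. DESeq2 likewise called 0 higher, and limma-voom with quality weights called 1, Ebp. The median log2 change of the 32 was -1.58, beside 0.22 over all genes. In 16 of the 32 every MPNST library lay below every neurofibroma library, where 16% of all genes did so; no member lay above without overlap, where 7.43% of genes did. Without MPNST libraries 2 and 6, 28 of the 32 were lower (28.5% of genes), 0 were higher (30.7%) and the median was -2.12 beside 0.07; 27 of the 32 were then without overlap (27.1%). Leaving out MPNST library 3 as well gave 28 lower (30.9%) and 1, Ebp, higher (32%). The columns of the table stand in 2 runs that no label explains, each with 3 samples of every group. Within the first run alone 19 members were called lower, where 13.8% of all genes were, and within the second, which holds MPNST libraries 3, 5 and 6, 10 were, where 5.75% of all genes were.

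Against normal nerve, 21 of the 32 were lower in MPNST, where 18.4% of 16384 genes were called lower, and 0 were called higher by edgeR, where 27.6% were (1 member at an unadjusted p below 0.05; 0 by DESeq2; 1 by limma-voom). The median log2 change was -1.26, beside 0.22 over all genes. In 14 members all MPNST libraries lay below all nerve libraries (14.8% of genes), and in 0 all lay above (8.75%). Without MPNST libraries 2 and 6, 28 were lower (27.8%) and 1, Ebp, was higher (32.9%), and 25 lay below without overlap (25.5%). Without library 3 as well 26 were lower (30.9%) and 1 higher (31.5%). Within the first column run alone 18 were lower (16.6% of genes) and within the second 5 (4.81%). This comparison shares its MPNST libraries with the one above, so the values of both are given side by side for each gene and neither supports the other.

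**Figure D1:**
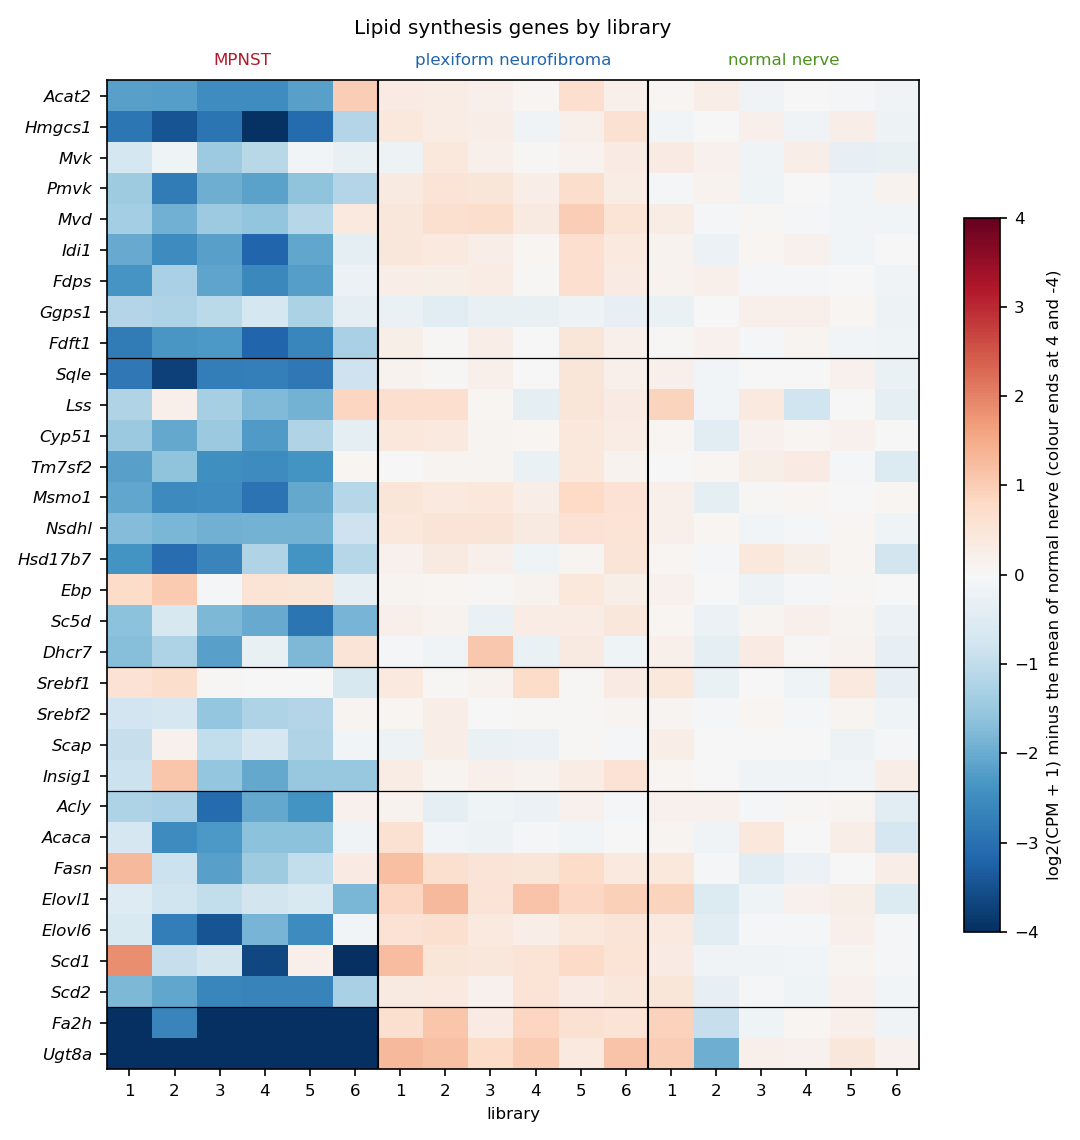
Levels of the 32 genes (rows, ordered by role) in the 18 libraries (columns, MPNST at the left), as log2(CPM + 1) minus the mean of the 6 nerve libraries, with blue for lower and the colour ending at 4 and -4. The MPNST block is blue in nearly all rows, but not in Ebp and Srebf1, and Fasn and Scd1 are mixed. Library 6 is paler than the other MPNST in most sterol rows.

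Of the 9 genes from acetyl-CoA to squalene, 7 were lower in MPNST than in neurofibromas (16.8% of all genes) and 6 lower than in nerves (18.4%). Without MPNST libraries 2 and 6 all 9 were lower in both, where 28.5% and 27.8% of all genes were. Hmgcs1, the synthase that makes HMG-CoA, had 41.8, 81.2 and 288 CPM in MPNST, against 588.5, 795 and 1009 CPM in neurofibromas and 569, 629 and 781 CPM in nerves. Its MPNST libraries all lay below the other groups, and the highest of them was library 6. The log2 change was -2.82 (SE 0.42, adjusted p = 0.000391) against neurofibromas and -2.56 (SE 0.41, adjusted p = 0.000516) against nerves. Pmvk, which phosphorylates phosphomevalonate, had 5, 11.1 and 17.2 CPM in MPNST, against 49.2, 54.3 and 66.5 CPM in neurofibromas and 36.1, 40 and 45 CPM in nerves. No MPNST library reached the other groups. Pmvk changed by -2.21 (SE 0.24, adjusted p = 5.65e-05) on the log2 scale against neurofibromas and by -1.77 (SE 0.24, adjusted p = 0.000213) against nerves. Mvd, the decarboxylase that makes isopentenyl diphosphate, had 4.79, 7.2 and 27.5 CPM in MPNST, against 26.7, 31.9 and 41.7 CPM in neurofibromas and 19.1, 19.9 and 25.9 CPM in nerves. Library 6 alone, at 27.5 CPM, reached the neurofibromas and stood above all nerves, and the other 5 MPNST lay below both. Mvd changed by -1.57 (SE 0.37, adjusted p = 0.0059) against neurofibromas and was not called against nerves, at -0.95 (SE 0.37, adjusted p = 0.051), where it was called without libraries 2 and 6, at -1.38 (SE 0.17, adjusted p = 7.56e-05).

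Idi1, which isomerises isopentenyl diphosphate, had 12.1, 26.2 and 89.4 CPM in MPNST, against 124, 154 and 188 CPM in neurofibromas and 98.6, 119 and 131 CPM in nerves. All MPNST libraries were lower than all others. Its log2 change was -2.11 (SE 0.39, adjusted p = 0.00153) against neurofibromas and -1.74 (SE 0.38, adjusted p = 0.00348) against nerves. Fdps, farnesyl diphosphate synthase, had 18.5, 24.9 and 97 CPM in MPNST, against 118, 140.1 and 182 CPM in neurofibromas and 103, 110.5 and 133 CPM in nerves. Libraries 6 and 2 were the 2 highest MPNST, at 97 and 45.9 CPM, and still lay below both other groups. Fdps changed by -1.77 (SE 0.38, adjusted p = 0.0037) against neurofibromas and by -1.47 (SE 0.38, adjusted p = 0.00766) against nerves. Fdft1, squalene synthase and the first step given over to sterol, had 18.2, 29.9 and 69.3 CPM in MPNST, against 169, 199 and 238 CPM in neurofibromas and 152, 169.6 and 193 CPM in nerves. The MPNST did not overlap the other groups. Fdft1 changed by -2.42 (SE 0.29, adjusted p = 9.99e-05) against neurofibromas and by -2.23 (SE 0.29, adjusted p = 0.000132) against nerves. Ggps1, which leads farnesyl diphosphate off to protein prenylation, had 33.5, 37.1 and 63.5 CPM in MPNST, against 60.2, 66.2 and 70.3 CPM in neurofibromas and 68, 84.4 and 94.3 CPM in nerves. Its drop was small, and library 6 overlapped the neurofibromas. The log2 change of Ggps1 was -0.52 (SE 0.16, adjusted p = 0.022) against neurofibromas and -0.86 (SE 0.18, adjusted p = 0.00241) against nerves, and the first was not called without MPNST libraries 1 and 5, at -0.39 (SE 0.18, adjusted p = 0.127).

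The other 2 genes of this branch were Acat2, which joins acetyl-CoA units, and Mvk, mevalonate kinase, and neither was called with all libraries. Acat2, singled out after its values were seen, stood at 192 CPM in MPNST library 6 and at 16.5 to 20.9 CPM in the other 5, against 102 to 156 CPM in neurofibromas and 87.7 to 117 CPM in nerves. One MPNST library was thus above every other library of the study and the other 5 were below all neurofibromas and nerves. The log2 change against neurofibromas was -1.28 (SE 0.60, adjusted p = 0.107) with all libraries and -2.51 (SE 0.16, adjusted p = 6.12e-07) without library 6. The second value rests on leaving out the highest library of Acat2. Acat2 overlaps another gene on the opposite strand, and the strand setting of the counting is not given in the sources used here. Mvk was at a log2 change of -0.64 (SE 0.27, adjusted p = 0.073) against neurofibromas, and was called at -0.91 (SE 0.27, adjusted p = 0.0147) without libraries 2 and 6.

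Of the 10 genes from squalene to cholesterol, 7 were lower in MPNST than in neurofibromas (16.8% of all genes) and 7 lower than in nerves (18.4%). Without libraries 2 and 6 it was 9 and 9, where 28.5% and 27.8% of all genes were lower. Sqle, squalene epoxidase, a rate-limiting oxygen-dependent step, had 8.95, 17.7 and 74 CPM in MPNST, against 130.1, 148 and 185 CPM in neurofibromas and 109.9, 132 and 151 CPM in nerves. No MPNST library reached the other groups, and library 6 stood well above the other 5. Its log2 change was -2.46 (SE 0.42, adjusted p = 0.00091) against neurofibromas and -2.30 (SE 0.41, adjusted p = 0.00108) against nerves, and -3.08 (SE 0.20, adjusted p = 6.16e-07) and -2.91 (SE 0.19, adjusted p = 8.41e-07) without library 6. Library 6 was left out as the highest in Sqle, so the smaller p-values are no added support. Cyp51, the lanosterol demethylase, had 18.1, 31.6 and 68.8 CPM in MPNST, against 94.7, 115.5 and 121 CPM in neurofibromas and 65, 95.5 and 102 CPM in nerves. The MPNST lay below all neurofibromas, and library 6 overlapped the lowest nerve. Cyp51 changed by -1.56 (SE 0.27, adjusted p = 0.00101) against neurofibromas and by -1.29 (SE 0.28, adjusted p = 0.00285) against nerves. Tm7sf2, a sterol reductase, had 3.42, 4.2 and 25.5 CPM in MPNST, against 19.7, 25.9 and 33.1 CPM in neurofibromas and 16.3, 24.7 and 30.6 CPM in nerves. Library 6 lay within the other groups, and the other 5 MPNST lay below them. Tm7sf2 changed by -1.60 (SE 0.48, adjusted p = 0.0198) against neurofibromas and by -2.67 (SE 0.19, adjusted p = 1.94e-06) without libraries 2 and 6, and was not called without libraries 1 and 5, at -1.25 (SE 0.56, adjusted p = 0.106). Against nerves it changed by -1.54 (SE 0.49, adjusted p = 0.0223), and leaving out library 5 alone gave -1.40 (SE 0.52, adjusted p = 0.0518).

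The 3 enzymes that strip further methyl groups from the sterol ring after Cyp51 all fell without overlap. Msmo1, which oxidises the methyl groups, had 17.3, 28.3 and 62.9 CPM in MPNST, against 169.9, 192 and 243 CPM in neurofibromas and 108, 145 and 160.1 CPM in nerves. Its log2 change was -2.52 (SE 0.27, adjusted p = 4.32e-05) against neurofibromas and -2.04 (SE 0.26, adjusted p = 0.000137) against nerves. Nsdhl, which removes the resulting carboxyl group, had 11.2, 11.8 and 25.4 CPM in MPNST, against 58.6, 65.6 and 69.2 CPM in neurofibromas and 40.8, 45.6 and 52.2 CPM in nerves. The MPNST other than library 6 were close together, and none reached the other groups. Nsdhl changed by -2.08 (SE 0.20, adjusted p = 2.39e-05) against neurofibromas and by -1.60 (SE 0.21, adjusted p = 0.00015) against nerves. Hsd17b7, which reduces the ketone left behind, had 4.27, 7.22 and 18.4 CPM in MPNST, against 37.2, 48.7 and 60.3 CPM in neurofibromas and 24.7, 44.4 and 56.3 CPM in nerves. MPNST libraries 4 and 6 were the highest of their group, below all neurofibromas and nerves. Hsd17b7 changed by -2.18 (SE 0.34, adjusted p = 0.000578) against neurofibromas and by -2.02 (SE 0.36, adjusted p = 0.00104) against nerves.

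Among the last steps, Sc5d, a sterol desaturase, had 13.6, 29.9 and 69.1 CPM in MPNST, against 90.4, 128 and 147.5 CPM in neurofibromas and 91.2, 115 and 125 CPM in nerves. Here the highest MPNST was library 2, which still lay below the other groups. Sc5d changed by -1.71 (SE 0.35, adjusted p = 0.00261) against neurofibromas and by -1.55 (SE 0.34, adjusted p = 0.0037) against nerves. Lss, which closes squalene epoxide into lanosterol, and Dhcr7, which reduces the last precursor, were not called with all libraries, at -0.72 (SE 0.49, adjusted p = 0.249) and -0.94 (SE 0.46, adjusted p = 0.118) against neurofibromas. Both were lower without libraries 2 and 6, at -1.88 (SE 0.26, adjusted p = 0.000141) and -1.50 (SE 0.43, adjusted p = 0.0122). Ebp, the sterol isomerase between these steps, did not share the drop and stood at 14.2 to 40.3 CPM in MPNST, against 19.6 to 25.6 CPM in neurofibromas and 16 to 21.5 CPM in nerves. The MPNST spread across both other groups. Ebp, singled out after its values were seen, was not called with all libraries, at 0.45 (SE 0.26, adjusted p = 0.183) against neurofibromas and 0.62 (SE 0.26, adjusted p = 0.0729) against nerves. Without library 6, its lowest, it was called higher in both, at 0.59 (SE 0.21, adjusted p = 0.0329) and 0.75 (SE 0.21, adjusted p = 0.0104). Of the single libraries left out only library 6 gave these calls, so they rest on leaving out the lowest value. Without libraries 2 and 6 Ebp was not called against neurofibromas, at 0.35, and was called higher than in nerves, at 0.56.

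**Figure D2:**
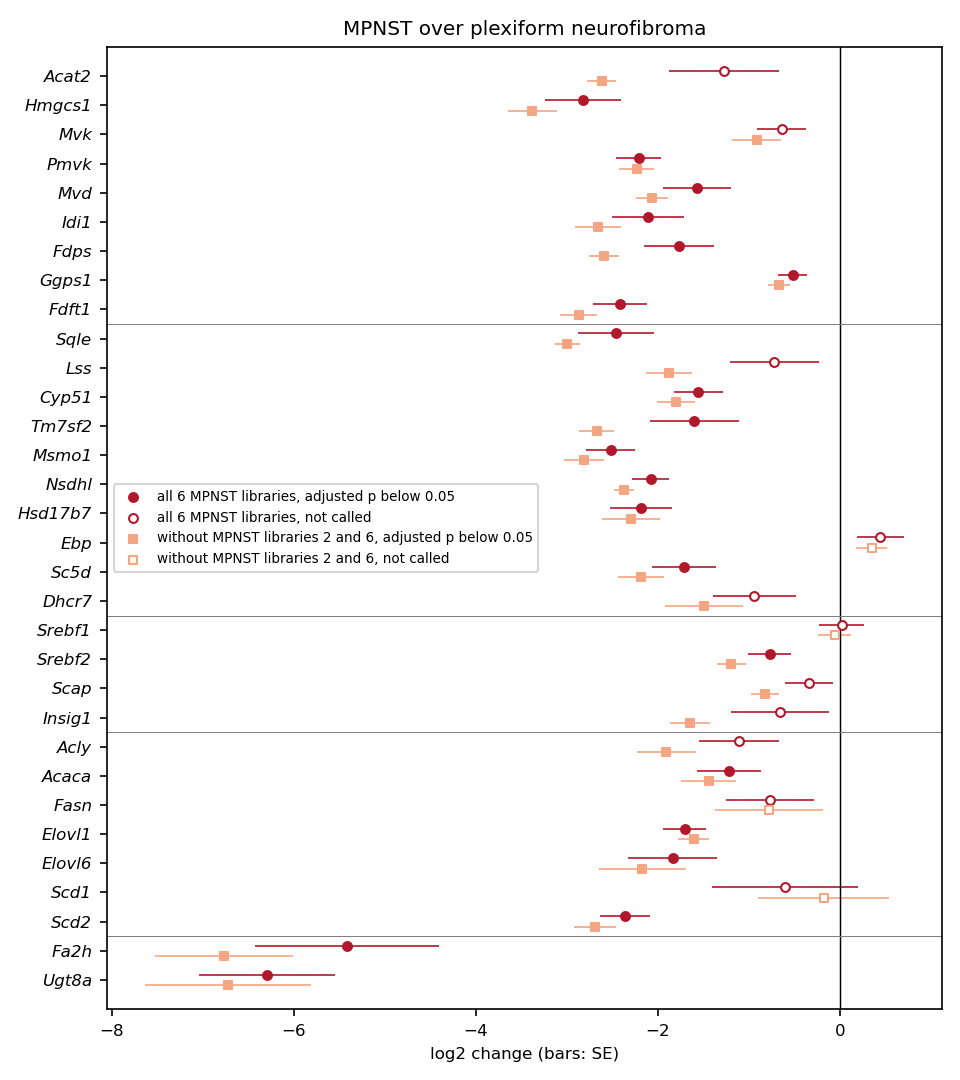
Log2 change of each of the 32 genes in MPNST over plexiform neurofibroma (x axis, bars: SE), with all 6 MPNST libraries (red circles) and without libraries 2 and 6 (pale squares); filled symbols passed an adjusted p of 0.05. With all libraries 21 genes lie filled and left of 0, without the 2 libraries 28 do, and Ugt8a and Fa2h lie farthest left at -6.30 and -5.41.

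MPNST library 6 was the highest of its group in 21 of the 32 genes, library 2 in 6, library 1 in 4 and library 5 in 1. It also had the highest cycling cell markers, a summed 1233 CPM against 36.5 to 450.5 CPM in the other MPNST, and sensory neuron markers at 1328 CPM against 5.93 to 12.4 CPM. Adrenal cortex markers, a steroid-making tissue, were at 20.9 CPM in library 6 and 26.7 to 74.0 CPM in the other MPNST. Of that list, Cyp11b1 and Hsd3b1 were at 0 in all 6 MPNST, and Nr5a1 was above 0 in library 6 alone of the MPNST. The part of any of these markers in the sterol levels of library 6 was not tested.

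Of the 4 regulators, only Srebf2 was called lower in MPNST, against neurofibromas (16.8% of all genes) and against nerves (18.4%). Srebf2, the SREBP that drives sterol genes, had 56, 84.2 and 177 CPM in MPNST, against 167, 172 and 198 CPM in neurofibromas and 146, 166 and 176 CPM in nerves. Library 6 stood within the neurofibromas and just above all nerves, and the other 5 MPNST lay below both. Srebf2 changed by -0.77 (SE 0.24, adjusted p = 0.0215) against neurofibromas and by -1.19 (SE 0.16, adjusted p = 0.000113) without libraries 2 and 6, but was not called without libraries 1 and 5, at -0.67 (SE 0.30, adjusted p = 0.109). Against nerves it changed by -0.69 (SE 0.24, adjusted p = 0.033), a call lost on leaving out any 1 of 7 of the 12 libraries (MPNST 1, 3, 4 or 5, or nerve 1, 3 or 5), with adjusted p between 0.0546 and 0.0721. Srebf1, whose main products drive fatty acid genes and which is annotated with 3 start windows that gene-level counts do not separate, was not called, at 0.02 (SE 0.25, adjusted p = 0.95) against neurofibromas and 0.29 (SE 0.26, adjusted p = 0.387) against nerves.

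The ratio of Srebf1 to Srebf2 within a library does not depend on library size, and was set up after the values were seen, with Scd1 to Scd2 and Elovl1 to Elovl6, which had no exact permutation adjusted p below 0.0974 with all libraries. Without libraries 2 and 6 the difference against nerves was 1.44 for Elovl1 to Elovl6 (exact permutation adjusted p = 0.0286) and 1.86 for Scd1 to Scd2 (exact permutation adjusted p = 0.05). Against neurofibromas it was 0.96 (exact permutation adjusted p = 0.0743) and 1.55 (exact permutation adjusted p = 0.105). The log2 mean of Srebf1 to Srebf2 was -0.35 ± 0.88 in MPNST, against -1.17 ± 0.32 in neurofibromas and -1.36 ± 0.24 in nerves (SD, n = 6 each). The MPNST ranged from -2.12 in library 6 to 0.24, around the other groups. The difference was 0.81 against neurofibromas (exact two-sided permutation p = 0.0628, adjusted p = 0.141 over 9 tests) and 1.004 against nerves (exact p = 0.0216, adjusted p = 0.0974). Without libraries 2 and 6 the MPNST mean was -0.01 ± 0.19 (n = 4), and its lowest value, -0.20, lay above every neurofibroma and nerve. The differences were then 1.16 and 1.35, each at the smallest exact p of 210 regroupings (0.00476, adjusted p = 0.0143 over 6 tests). Without libraries 1 and 5 instead they were 0.69 and 0.88 (exact permutation adjusted p = 0.486 for both). Neurofibromas and nerves differed by 0.19 (exact permutation adjusted p = 0.409).

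Insig1 and Scap, which hold and carry the SREBP proteins, were not called with all libraries. Insig1, singled out after its values were seen, stood at 222 CPM in MPNST library 2 and at 24.1 to 55.8 CPM in the other 5, against 109 to 151 CPM in neurofibromas and 92.3 to 123 CPM in nerves. The salivary library was above all others and the other 5 MPNST below. The log2 change against neurofibromas was -0.65 (SE 0.54, adjusted p = 0.345) with all libraries and -1.65 (SE 0.21, adjusted p = 0.000204) without library 2. The second value rests on leaving out the highest library of Insig1. Scap was at -0.34 (SE 0.26, adjusted p = 0.318), and was called at -0.82 (SE 0.15, adjusted p = 0.000958) without libraries 2 and 6. Scap in MPNST ran from 27.5 to 72.7 CPM, again with library 2 the highest.

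Of the 7 fatty acid genes, 4 were lower in MPNST than in neurofibromas (16.8% of all genes) and 5 lower than in nerves (18.4%). Without libraries 2 and 6 it was 5 and 5, where 28.5% and 27.8% of all genes were lower. Scd2, the stearoyl-CoA desaturase of nerve and brain, had 304, 388 and 791 CPM in MPNST, against 2196, 2527 and 2872 CPM in neurofibromas and 1570, 1845 and 2739 CPM in nerves. The MPNST lay far below both other groups, with library 6 the highest of them. Scd2 changed by -2.36 (SE 0.27, adjusted p = 7.39e-05) against neurofibromas and by -2.02 (SE 0.29, adjusted p = 0.000283) against nerves. Elovl6, which extends palmitate to stearate, had 9.8, 25.8 and 108 CPM in MPNST, against 139.9, 164 and 183 CPM in neurofibromas and 87.5, 113 and 155 CPM in nerves. MPNST libraries 1 and 6 were well above the other 4, and library 6 reached into the nerves but not the neurofibromas. Elovl6 changed by -1.84 (SE 0.49, adjusted p = 0.0106) against neurofibromas and by -1.40 (SE 0.49, adjusted p = 0.0346) against nerves, the second a call lost on leaving out any 1 of 8 libraries (MPNST 2 to 5, nerve 1 or 3 to 5), with adjusted p between 0.0501 and 0.0862. Elovl1, which makes the very long chains of myelin sphingolipids, had 15.3, 33.2 and 39.4 CPM in MPNST, against 83.8, 108 and 141 CPM in neurofibromas and 38.7, 57.4 and 106 CPM in nerves. Only MPNST library 1 reached the lowest nerves, and library 6 was the lowest MPNST. Elovl1 changed by -1.70 (SE 0.24, adjusted p = 0.000254) against neurofibromas and by -0.84 (SE 0.30, adjusted p = 0.0356) against nerves, where leaving out MPNST 4 or nerve 1, 4 or 5 gave adjusted p between 0.053 and 0.0825.

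Acaca, acetyl-CoA carboxylase, which makes malonyl-CoA, had 21, 39.4 and 113.5 CPM in MPNST, against 108, 118 and 191 CPM in neurofibromas and 79.2, 131 and 167 CPM in nerves. Library 6 alone reached into the other groups. Acaca changed by -1.22 (SE 0.36, adjusted p = 0.0165) against neurofibromas and by -1.23 (SE 0.36, adjusted p = 0.016) against nerves. The first was not called without libraries 1 and 5, at -1.26 (SE 0.46, adjusted p = 0.057). Acly, which frees cytosolic acetyl-CoA from citrate, had 46.5, 129.9 and 449.5 CPM in MPNST, against 315, 374 and 449.5 CPM in neurofibromas and 303, 424 and 454 CPM in nerves. Library 6 stood level with the highest neurofibroma and within the nerves, and the other 5 MPNST lay below both other groups. Acly was not called against neurofibromas, at -1.11 (SE 0.44, adjusted p = 0.0595), and was called at -1.91 (SE 0.32, adjusted p = 0.000564) without libraries 2 and 6. Against nerves the change of Acly was -1.21 (SE 0.44, adjusted p = 0.0404), a call lost on leaving out any library but MPNST 6 or nerve 6, with adjusted p between 0.058 and 0.0879 where it was lost.

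Fasn and Scd1, the synthase of palmitate and the desaturase of fat and liver, were the fatty acid genes not called in MPNST in either comparison. Scd1 had 20.9, 282 and 1834 CPM in MPNST, against 686, 741 and 1194 CPM in neurofibromas and 455, 476 and 632 CPM in nerves. The MPNST ran from far below to above both other groups, with library 1 the highest at 1834 CPM, library 5 next at 586 CPM and library 6 the lowest. Its log2 change was -0.60 (SE 0.80, adjusted p = 0.571) against neurofibromas and 0.08 (SE 0.80, adjusted p = 0.939) against nerves. Fasn had 54.9, 133 and 625.5 CPM in MPNST, against 333, 374 and 584 CPM in neurofibromas and 186, 250.2 and 339.5 CPM in nerves. Library 1 lay above every nerve and neurofibroma, library 6 within the nerves, and the other 4 below both. The log2 change of Fasn was -0.77 (SE 0.48, adjusted p = 0.217) against neurofibromas and -0.12 (SE 0.48, adjusted p = 0.85) against nerves. Without library 1, its highest, Fasn was called lower than in neurofibromas, at -1.37 (SE 0.37, adjusted p = 0.0144). That call rests on leaving out the highest value, and without libraries 2 and 6 Fasn was not called in either comparison.

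The MPNST and neurofibroma libraries highest in adipocyte markers also stood highest in Scd1 within their group, and only some of them in Fasn. All 10 of the list (Adipoq, Plin1, Cfd, Fabp4 and others) were found, with a summed level of 49.0 to 1625 CPM in MPNST, 33.6 to 930.7 CPM in neurofibromas and 36.3 to 84.0 CPM in nerves. MPNST libraries 1 and 5 had 1625 and 983.7 CPM and neurofibroma library 1 had 930.7 CPM, the 3 highest sums, while Adipoq, Cidec, Lep and Retn were at 0 in MPNST library 6. Neurofibroma library 1 was likewise the highest of its group in Scd1, at 1194 CPM, in Fasn, at 584 CPM, and in Acaca. It also carried skeletal muscle markers at 1571 CPM, against at most 8.38 CPM in the other neurofibromas. Its oligodendrocyte and astrocyte markers, at 909 CPM, were the highest of its group. Without MPNST libraries 1 and 5, chosen after seeing the data, Scd1 and Fasn were called lower than in neurofibromas, at -2.25 (SE 0.72, adjusted p = 0.035) and -1.31 (SE 0.44, adjusted p = 0.0441). In the 2 MPNST with the fewest adipocyte markers, libraries 4 and 6, Scd1 was at 39.3 and 20.9 CPM, below every neurofibroma and nerve. Fasn was at 128 CPM in library 5, below every nerve, and at 314 CPM in library 6, the second highest MPNST. Neurofibroma libraries 2 to 6 had at most 57.1 CPM of adipocyte markers, with Scd1 at 686 to 867 CPM, above MPNST library 5. Among nerves, library 2 had the highest sum, with Scd1 at 462 CPM, below the 632 CPM of library 1, whose sum was 41.6 CPM. The part of adipocytes, or of the other markers of neurofibroma library 1, in these levels was not tested. Scd1 and Scd2 are close relatives of 2 further genes, so the counting may have divided reads between them.

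**Figure D3:**
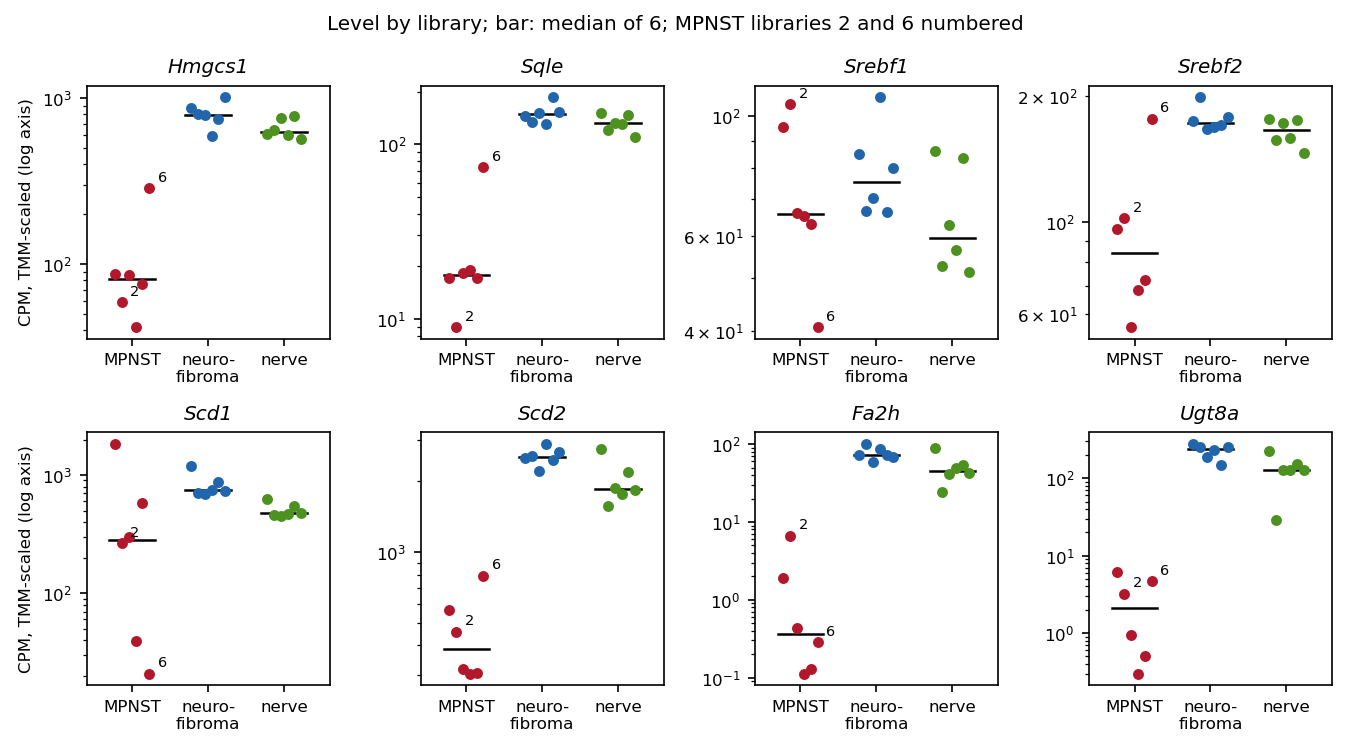
Level of 8 genes in each library (points, CPM on log axes; bars: median of 6), with MPNST at the left of each panel and MPNST libraries 2 and 6 numbered. In Hmgcs1, Sqle, Scd2, Fa2h and Ugt8a all MPNST lie below the other groups, in Srebf1 they overlap, and in Scd1 they span 20.9 to 1834 CPM.

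Fa2h and Ugt8a, the galactolipid enzymes of myelin, were the lowest of the 32 genes in MPNST relative to the other groups. Ugt8a had 0.3, 2.09 and 6.24 CPM in MPNST, against 148, 240.2 and 277 CPM in neurofibromas and 28.6, 129 and 223 CPM in nerves. The highest MPNST library was far below the lowest nerve, library 2, which was itself well under the other 5 nerves. Ugt8a changed by -6.30 (SE 0.75, adjusted p = 9.02e-05) against neurofibromas and by -5.54 (SE 0.81, adjusted p = 0.000306) against nerves. Fa2h had 0.113, 0.362 and 6.66 CPM in MPNST, against 59, 72.5 and 100.5 CPM in neurofibromas and 24.1, 45.7 and 89.8 CPM in nerves. All MPNST lay below all other libraries. The lowest MPNST level of Fa2h rested on 2 counts and that of Ugt8a on 8, so counting error alone is large there. Fa2h changed by -5.41 (SE 1.01, adjusted p = 0.00158) against neurofibromas and by -4.81 (SE 1.02, adjusted p = 0.00286) against nerves. Without library 2, its highest MPNST, Fa2h changed by -6.93 (SE 0.76, adjusted p = 8.60e-05) against neurofibromas and by -6.35 (SE 0.82, adjusted p = 0.000185) against nerves. These smaller p-values follow from leaving out the highest value and are no added support.

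Markers of myelinating Schwann cells were low in MPNST like both genes, but did not follow them library by library within MPNST. All 10 were found, and 9 of the 10 (Mbp, Pmp22, Prx and others, not Egr2) were lower in MPNST than in neurofibromas by edgeR, where 16.8% of all genes were. Their summed level was 62.5 to 982 CPM in MPNST, 11580 to 21050 CPM in neurofibromas and 4154 to 13920 CPM in nerves. Nerve library 2, the lowest nerve in Ugt8a and Fa2h, had the lowest sum of its group, and nerve library 1, the highest in both, had the highest. MPNST library 1 was the highest MPNST in Ugt8a and in the sum. MPNST library 2, the highest in Fa2h, had a sum of 90.6 CPM. MPNST library 3, at 320 CPM, had Ugt8a at 0.951 CPM, and library 6, at 163 CPM, had it at 4.69 CPM. None of the 10 was at 0 in any library. Schwann lineage markers (Sox10, S100b and others) summed to 60.5 to 1216 CPM in MPNST, 6248 to 10520 CPM in neurofibromas and 2857 to 6318 CPM in nerves, while macrophage markers summed to 217 to 3507 CPM, 152 to 359 CPM and 48.1 to 233 CPM in the same order of groups. Sensory neuron markers were lower too, in 7 of 10 against neurofibromas with all libraries (16.8% of all genes) and in 10 of 10 without MPNST libraries 2 and 6 (28.5%), with medians of -6.91 and -8.79. Their summed level was 5.93 to 12.4 CPM in 5 MPNST and 1328 CPM in library 6. Of 9 tested oligodendrocyte and astrocyte markers 5 were lower than in neurofibromas with all libraries, and of 6 satellite glia markers 2, where 16.8% of all genes were. The part of the number of myelinating cells, neurons or other glia in the fall of the lipid genes was not tested.

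**Figure D4:**
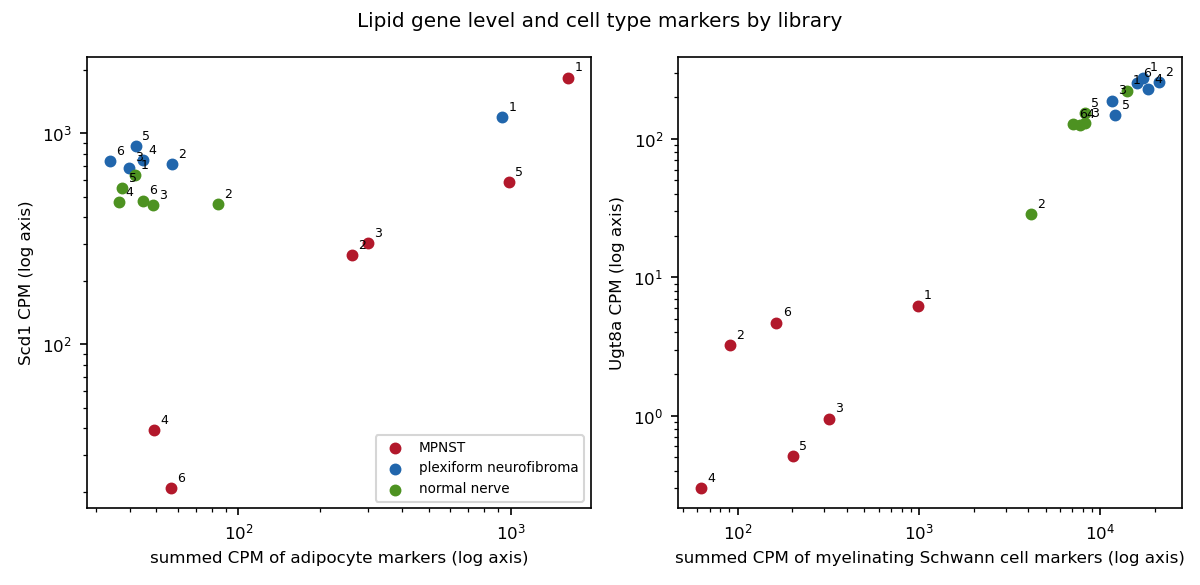
Level of Scd1 against the summed adipocyte markers (left) and of Ugt8a against the summed myelinating Schwann cell markers (right) in the 18 libraries (numbered points, CPM, log axes). MPNST libraries 1 and 5 and neurofibroma library 1 stand at the right of the left panel with at least 930.7 CPM of adipocyte markers, and in the right panel the MPNST lie at the lower left, at 982 CPM of myelin markers or less.

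Plexiform neurofibromas against normal nerve asks what the benign tumour had already changed, within 1 tissue site. Of the 32 genes, 9 were higher in neurofibromas and 1 lower, where 7.94% of 16464 genes were called higher and 6% lower. The median log2 change was 0.27, beside -0.02 over all genes, and all changes were smaller than 1. Pmvk, Mvd, Msmo1, Nsdhl and Scd1 did not overlap between the groups, 5 of 32 where 4.69% of all genes lay higher without overlap, and 0 lay lower (1.88%). These 5 kept their call on leaving out any 1 library. DESeq2 called 12 higher and 1 lower, where 11.2% of all genes were higher and 10.1% lower, and limma-voom 12 and 1, where 12.8% and 11.6% were. One edgeR fit of all 18 samples called 0 of the 32 higher and 0 lower (4 and 0 at an unadjusted p below 0.05), and called only 2 of all 17316 genes. The share of all genes at the unadjusted threshold was not counted.

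In the sterol branch, Mvd had 26.7, 31.9 and 41.7 CPM in neurofibromas, against 19.1, 19.9 and 25.9 CPM in nerves, and changed by 0.63 (SE 0.12, adjusted p = 0.00633). Nsdhl had 58.6, 65.6 and 69.2 CPM in neurofibromas, against 40.8, 45.6 and 52.2 CPM in nerves, and changed by 0.49 (SE 0.08, adjusted p = 0.00302). For both genes the lowest neurofibroma was above the highest nerve. Pmvk had 49.2, 54.3 and 66.5 CPM in neurofibromas, against 36.1, 40 and 45 CPM in nerves, and changed by 0.45 (SE 0.10, adjusted p = 0.0118). Msmo1 had 169.9, 192 and 243 CPM in neurofibromas, against 108, 145 and 160.1 CPM in nerves, and changed by 0.48 (SE 0.11, adjusted p = 0.017). Again every neurofibroma lay above every nerve, and of the 5 genes without overlap Mvd had the narrowest gap in CPM. Idi1 had 124, 154 and 188 CPM in neurofibromas, against 98.6, 119 and 131 CPM in nerves, which overlapped, and changed by 0.38 (SE 0.11, adjusted p = 0.0366). The call of Idi1 was lost on leaving out any 1 of 8 libraries (nerve 2 to 5, neurofibroma 1, 2, 5 or 6), with adjusted p between 0.0504 and 0.0786. Ggps1, the prenylation branch, was the 1 gene called lower in neurofibromas, at -0.33 (SE 0.09, adjusted p = 0.0248), a call lost without nerve 3 or 5 or neurofibroma 2, with adjusted p between 0.0531 and 0.0556. The other sterol genes were not called. Hmgcs1 was at a log2 change of 0.27 (SE 0.13, adjusted p = 0.16) and Sqle at 0.17 (SE 0.10, adjusted p = 0.25).

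Fatty acid genes gave 4 of the 9 rises. Scd1 had 686, 741 and 1194 CPM in neurofibromas, against 455, 476 and 632 CPM in nerves, and changed by 0.68 (SE 0.14, adjusted p = 0.0101). Fasn had 333, 374 and 584 CPM in neurofibromas, against 186, 250.2 and 339.5 CPM in nerves, and changed by 0.65 (SE 0.17, adjusted p = 0.0262). The groups did not overlap in Scd1 and just overlapped in Fasn. Elovl1 had 83.8, 108 and 141 CPM in neurofibromas, against 38.7, 57.4 and 106 CPM in nerves, with nerve library 1 inside the neurofibromas, and changed by 0.86 (SE 0.23, adjusted p = 0.0277). Elovl6 had 139.9, 164 and 183 CPM in neurofibromas, against 87.5, 113 and 155 CPM in nerves, and changed by 0.44 (SE 0.13, adjusted p = 0.0373). The call of Fasn was lost without nerve 2, 4 or 5 or neurofibroma 2, with adjusted p up to 0.062. That of Elovl1 was lost without nerve 3, 4 or 5 or neurofibroma 2, 4 or 6, with adjusted p up to 0.068. That of Elovl6 was lost without nerve 2, 3 or 4 or any 1 neurofibroma, with adjusted p up to 0.0821. The galactolipid genes were not called, at 0.76 (SE 0.34, adjusted p = 0.151) for Ugt8a and 0.60 (SE 0.25, adjusted p = 0.122) for Fa2h. Scd2 was at 0.34 (SE 0.13, adjusted p = 0.0928). The regulators were not called either, Srebf1 at 0.27 (SE 0.16, adjusted p = 0.263) and Srebf2 at 0.09 (SE 0.07, adjusted p = 0.407), and Acly and Acaca were at -0.09 (SE 0.11, adjusted p = 0.616) and 0.00 (SE 0.17, adjusted p = 0.996).

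Nerve library 6 carried central glia markers, and neurofibroma library 1 carried adipocyte and skeletal muscle markers. Without both libraries 8 genes were higher (10.7% of genes) and 1 lower (10.1%). Scd1 then changed by 0.55 (SE 0.11, adjusted p = 0.00777) and Fasn by 0.59 (SE 0.15, adjusted p = 0.0192). Of 10 myelinating Schwann cell markers, 3 were called higher in neurofibromas with all libraries, Pmp22 and Fam178b among them, where 7.94% of all genes were. Of 9 tested Schwann lineage markers 5 were higher (7.94% of all genes), with a median log2 change of 0.74 over the 9. Their part in the rises was not tested. Within either column run alone edgeR called 0 of the 32 higher and 0 lower, with 9 higher in each run at an unadjusted p below 0.05. Over all genes it called 0 in the first run and 5 in the second. With the run as a term in the fit, 8 of the 9 rises were called, all but Elovl6, where 6.79% of all genes were called higher.

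**Figure D5:**
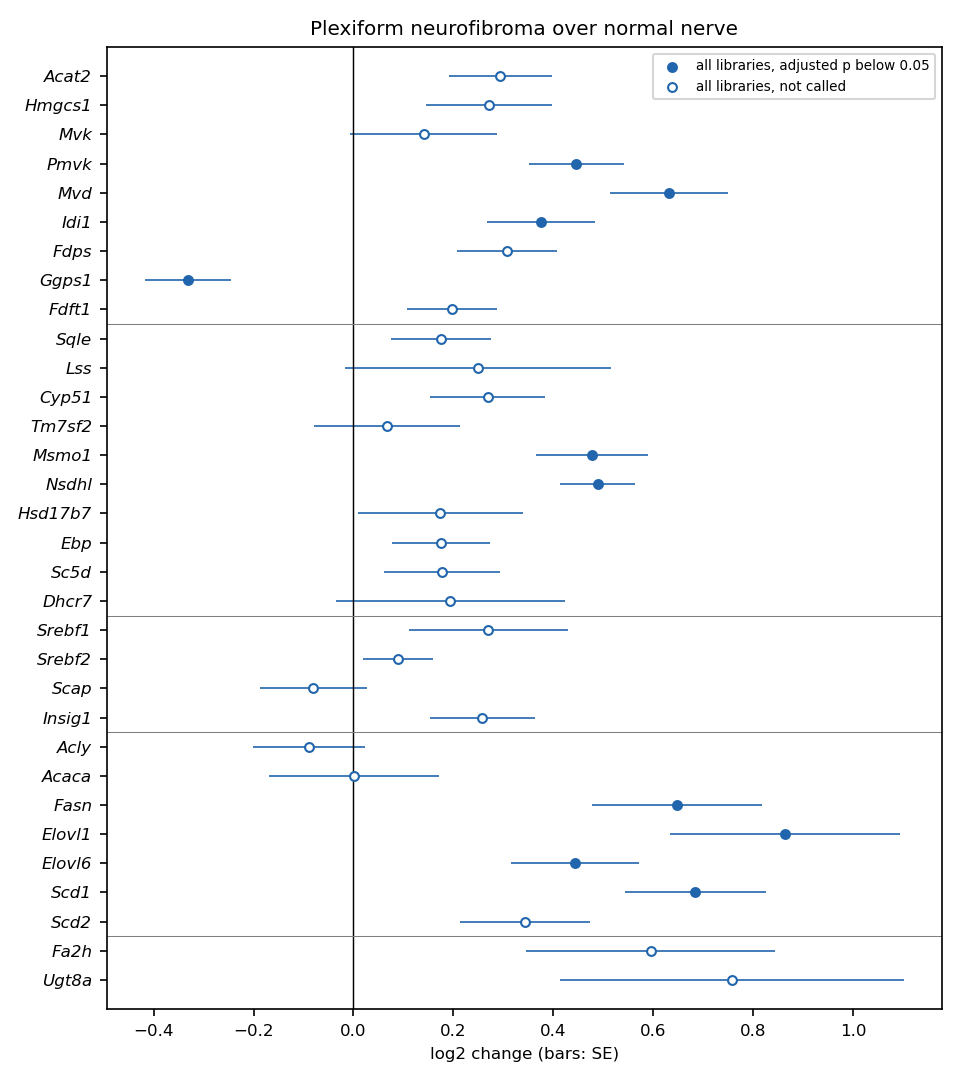
Log2 change of each of the 32 genes in plexiform neurofibroma over normal nerve (x axis, bars: SE), with filled symbols at an adjusted p below 0.05. The 9 filled genes right of 0 lie between 0.38 and 0.86, and Ggps1 lies filled at -0.33.

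Other genes of lipid metabolism were taken from 4 lists that hold none of the 32. Of 24 further genes of fatty acid supply, elongation and desaturation, 23 were tested against neurofibromas, and 7 were lower and 3 higher in MPNST, where 16.8% of all genes were lower and 25.3% higher. Hacd3, a dehydratase of the elongation cycle, changed by -1.67 (SE 0.21, adjusted p = 0.000116), and Elovl5, an elongase of polyunsaturated chains, by -1.44 (SE 0.18, adjusted p = 0.000137). Against nerves 6 of 22 were lower and 1 higher (18.4% and 27.6% of all genes), with Hacd3 at -1.80 (SE 0.21, adjusted p = 6.43e-05) and Elovl5 at -1.31 (SE 0.19, adjusted p = 0.000301). In neurofibromas against nerves 3 of 23 were higher and 0 lower (7.94% and 6% of all genes), led by Elovl2, another elongase, at 0.81 (SE 0.16, adjusted p = 0.00756), and Me1, which supplies NADPH, at 0.46 (SE 0.11, adjusted p = 0.0186).

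Of 20 genes of SREBP cleavage, LXR signalling and cholesterol handling, 3 were lower and 4 higher in MPNST than in neurofibromas, shares near the 16.8% and 25.3% of all genes. Stard4, a cytosolic sterol carrier, changed by -1.90 (SE 0.27, adjusted p = 0.000276), and Osbpl1a, an oxysterol-binding protein, by -2.07 (SE 0.48, adjusted p = 0.0054). Against nerves 3 were lower and 3 higher (18.4% and 27.6% of all genes), with Stard4 at -1.68 (SE 0.26, adjusted p = 0.000397) and Osbpl1a at -2.25 (SE 0.49, adjusted p = 0.00314). In neurofibromas against nerves 4 were higher and 0 lower (7.94% and 6% of all genes), led by Npc2, which moves cholesterol out of lysosomes, at 0.56 (SE 0.09, adjusted p = 0.00281), and Cyp7b1, an oxysterol hydroxylase, at 0.86 (SE 0.24, adjusted p = 0.0319).

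Of 18 sphingolipid and galactolipid genes, 17 were tested against neurofibromas, with 4 lower and 2 higher in MPNST (16.8% and 25.3% of all genes). Degs1, the desaturase that completes ceramide, changed by -1.53 (SE 0.23, adjusted p = 0.000431), and Sptssa, a small subunit of serine palmitoyltransferase, by 0.76 (SE 0.15, adjusted p = 0.00189). Against nerves 5 of 17 were lower and 2 higher (18.4% and 27.6%), with Sptssa at 1.22 (SE 0.17, adjusted p = 0.000204) and Degs1 at -1.64 (SE 0.24, adjusted p = 0.00035). In neurofibromas against nerves 4 of 18 were higher and 2 lower (7.94% and 6%), and the smallest p belonged to the 2 lower genes, Cers6, a ceramide synthase, at -0.42 (SE 0.10, adjusted p = 0.015), and Ugcg, which makes glucosylceramide, at -0.49 (SE 0.11, adjusted p = 0.0162).

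Of 11 genes of the isoprenoid branch, which uses farnesyl and geranylgeranyl diphosphate, 3 were lower and 2 higher in MPNST than in neurofibromas (16.8% and 25.3% of all genes). Fntb and Fnta, the subunits of protein farnesyltransferase, changed by -1.74 (SE 0.29, adjusted p = 0.000854) and -0.99 (SE 0.21, adjusted p = 0.00346). Against nerves 2 were lower and 2 higher (18.4% and 27.6%), with Pggt1b, a subunit of a protein prenyltransferase, at 0.84 (SE 0.16, adjusted p = 0.00171) and Dhdds, which starts dolichol synthesis, at -0.94 (SE 0.26, adjusted p = 0.0106). In neurofibromas against nerves 3 were higher and 2 lower (7.94% and 6%), with Fnta at 0.49 (SE 0.09, adjusted p = 0.00496) and Fntb at 0.68 (SE 0.13, adjusted p = 0.00787). These 4 lists had calls in both directions in MPNST, with a median log2 change against neurofibromas between -0.87 and 0.24, beside -1.58 for the 32 genes and 0.22 for all genes.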

How the data were processed

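Poly(A) RNA of 18 mouse samples (6 MPNST, 6 plexiform neurofibromas, 6 nerves) was made into stranded libraries from 800 ng RNA with 10 amplification cycles, per the labels' protocols. The authors deposited estimated counts per gene, not normalized; Salmon 1.4.0, FastQC, DESeq2 and the build GRCm39 are named in the submitters' processing notes. The sources used here give no annotation release and no strand setting. Counts were rounded to whole numbers. Groups come from the labels; libraries are numbered by order only, and 0 columns lacked a sample. No library was a duplicate (lowest chi-square per degree of freedom within a group 18.9, over 45 pairs).

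Each pair of groups was fitted alone (R 4.3.3, edgeR 4.0.16) by the quasi-likelihood functions glmQLFit and glmQLFTest, two-sided, after TMM scaling and the filterByExpr filter, with Benjamini-Hochberg adjustment over all genes tested and a threshold of 0.05. The procedure was tested on simulated data. SE is the log2 change divided by the root of the test statistic. CPM use TMM factors over all 18 libraries, because library 2 of the MPNST had a factor of 0.41. Ratios add 0.5 to each estimated count. Counting error alone is 31.6% at 10 counts, 10% at 100 and 3.16% at 1000, and covers counting only. Members, gene lists and tests were chosen with earlier results of these data known. Where a gene is given without its own most extreme library, the adjusted p follows from that choice. Genes were named by a rule: members called in any comparison, and the 2 called genes with the smallest p of each list and comparison; others are said to be singled out. Alternatives were RLE and upper quartile normalization, other count filters (none; at least 1 CPM in 6 samples), DESeq2 1.42.0, limma 3.58.1 (voom), a threshold of 0.01, one fit of all 18 samples, and left-out libraries; fits by column run and those leaving out MPNST libraries 1 and 5 were added after seeing the data. Figures were drawn with matplotlib 3.10.9.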

Additional observations from a re-analysis of the deposited data

Results flagged for a closer look

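For each of the 32 genes in each of the 3 groups, the gap between the highest or lowest library and its nearest neighbour was set against the range of the 6 libraries, and called apart past Dixon's 95% critical value. Of these 96 checks 23 stood out, where chance gives about 1 in 20. MPNST library 6 accounted for 11 of the 23, all as the highest of its group, and neurofibroma library 1 for 3.

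In MPNST library 6, the one with sympathoadrenal, pancreatic acinar and cycling cell markers, the genes were Acat2 at 192.3 CPM, Hmgcs1 at 287.8 CPM, Mvd at 27.53 CPM, Idi1 at 89.37 CPM, Fdps at 97.05 CPM, Fdft1 at 69.33 CPM, Sqle at 73.97 CPM, Tm7sf2 at 25.54 CPM, Msmo1 at 62.88 CPM, Nsdhl at 25.45 CPM and Acly at 449.5 CPM. In MPNST library 2, the one with salivary gland markers, Sc5d stood out at 69.12 CPM, Insig1 at 222 CPM and Fa2h at 6.662 CPM. Scd1 stood out at 1834 CPM in MPNST library 1, which had the highest adipocyte markers.

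Among the neurofibromas, library 1 stood out in Acaca at 191.4 CPM, Fasn at 584.1 CPM and Scd1 at 1194 CPM. Acat2 was at 156.3 CPM in library 5, Dhcr7 at 93.49 CPM in library 3 and Srebf2 at 198.3 CPM in library 2. Among the nerves, Mvd was high in library 1 at 25.9 CPM and Cyp51 low in library 2 at 64.96 CPM.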

How the results depend on the processing

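No paired analysis was possible because the labels give no replicate numbers. No gene changed the sign of a called value under any alternative. The count of the 32 members lower in MPNST than in neurofibromas was 21 with all libraries, where 16.8% of all genes were lower. It was 21 to 25 on leaving out any 1 library (14.2% to 23.9% of genes) and 16 at an adjusted p below 0.01 (10.6%). Within the second column run alone it was 10 (5.75%), of which 9 were among the 21. The count higher was 1, always Ebp, with limma-voom (28.5% of genes), without MPNST 2, 3 and 6 (32%) and without MPNST 6 (30.4%). Over left-out libraries the range was 0 to 1 (20.6% to 30.4%). Against nerves the count lower was 17 to 24 on leaving out any 1 library (15.9% to 25.1% of genes) and 5 within the second column run (4.81%). The count higher was 1 with upper quartile normalization (30.2% of genes), limma-voom (31.4%) and one fit of all 18 samples (31.5%). It was also 1 without MPNST libraries 2 and 6 (32.9%) and without 2, 3 and 6 (31.5%). Over left-out libraries the range was 0 to 1 (22.7% to 31.6%).

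In neurofibromas against nerves 9 members were called higher with all libraries, where 7.94% of all genes were. The count was 0 in one fit of all 18 samples (0.0116% of genes) and within the first and second column run (0% and 0.0308%). At an adjusted p below 0.01 the count was 2 (2.18%). On leaving out any 1 library it was 5 to 11 (3.72% to 11.8% of genes), with 5 without nerve 4 (4.82%) or neurofibroma 2 (4.92%). The count lower was 1 with all libraries (6% of genes), and 0 without a low-count filter (1.62%) and at an adjusted p below 0.01 (0.978%). It was 0 in one fit of all 18 samples and within either run, where 0% of genes were lower. Over left-out libraries the range was 0 to 1 (3.18% to 11.2%). The cause was not tested, beyond the fewer samples within a run. Of the values of single genes under alternatives other than left-out single libraries, 25 of the MPNST against neurofibroma comparison lost their call and 47 gained one, against 39 and 37 for MPNST against nerve and 44 and 7 for neurofibroma against nerve. Depth limits Fa2h and Ugt8a in MPNST, whose lowest libraries held 2 and 8 counts.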
